A study of Mus musculus with 4 samples.

Results

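Hedgehog signalling was followed through 9 genes taken by symbol: the ligand Shh, the receptor Ptch1, the ligand-binding antagonist Hhip, the co-receptors Boc, Cdon and Gas1, and the transcription factors Gli1, Gli2 and Gli3. They are 9 of the 24971 genes counted in neural tubes of E12.5 mouse embryos, when interneurons are being born, and 8 of them had enough reads to be tested. The 4 libraries comprised 2 labelled Lbx1Δ/Δ, whose targeted gene encodes a homeodomain factor of dorsal interneurons, and 2 labelled WT, all on the C57BL/6 background, and no other allele or treatment is given in the labels. Each library pooled the tubes of littermates that shared a genotype, so the values are averages over embryos and over all cells of the dissected tissue. In such pools, fewer cells of a type and less RNA per cell cannot be told apart. The labels also number the libraries 1 and 2 within each genotype, and do not say what a number stands for or whether libraries of the same number share a litter.

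SHH is secreted by the notochord and the floor plate and forms a gradient from ventral to dorsal in the neural tube. Without ligand, PTCH1 keeps the membrane protein SMO inactive and GLI proteins, GLI3 above all, act as repressors. Binding of SHH to PTCH1, helped by BOC, CDON and GAS1, releases SMO at the primary cilium, and GLI proteins then activate targets, among them Gli1, Ptch1 and Hhip themselves. The pathway sets ventral cell identities in the tube and also patterns the sclerotome, the part of the somite that forms vertebrae around it.

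Library totals were 17250143 and 16853984 reads in libraries 1 and 2 labelled Lbx1Δ/Δ, and 20579803 and 16948717 reads in WT libraries 1 and 2. Levels are given as CPM, the count scaled to the library total, and a gene with no count could still be at 0.146 to 0.178 CPM (the floor of 3 counts per library, which covers counting error only). Lbx1, the targeted gene, had 1946 and 6520 counts in the libraries labelled Lbx1Δ/Δ and 819 and 1379 counts in WT libraries. A targeted gene at a higher level is at odds with the genotype names by itself, and since the extent of the deletion is not stated in the labels, each genotype direction below is one between libraries as labelled. Of the neural progenitor markers, Sox2 was at 255 to 300.2 CPM and Nes at 996 to 1175 CPM, and of the neuron markers Tubb3 was at 1766 to 3748 CPM, while Pax6, which has several transcripts, was at 0.

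Shh was the most even of the tested Hedgehog genes. It had 570 and 533 counts, or 33.0 and 31.6 CPM, in libraries 1 and 2 labelled Lbx1Δ/Δ, against 669 and 577 counts, or 32.5 and 34.0 CPM, in WT libraries 1 and 2. The highest library was 1.08-fold above the lowest, and the 95% Poisson intervals of all 4 libraries, which cover counting error only, overlapped (29.0 to 34.4 CPM for the lowest, 31.3 to 36.9 CPM for the highest). Over the 4 libraries the coefficient of variation of Shh was 3.09%, against a median of 19.5% over all tested genes, and 1.71% of tested genes varied less. The groups overlapped, with means of 32.3 ± 1.003 CPM in the libraries labelled Lbx1Δ/Δ and 33.3 ± 1.09 CPM in WT (SD, n = 2 each), a fitted log2 difference of −0.05 (SE 0.19; edgeR quasi-likelihood test, Benjamini-Hochberg adjusted p = 0.9998). Other genes listed as floor plate markers were less even: Spon1 was at 326.7 and 509.8 CPM and Slit1 at 114 and 252 CPM in libraries 1 and 2 labelled Lbx1Δ/Δ, against 299.6 and 451.6 CPM and 81.5 and 179 CPM in WT libraries 1 and 2. Both were called higher in number 2, with log2 differences of 0.60 and 1.12 (edgeR adjusted p = 0.00355 and 0.00223), and Ntn1 did not pass (0.32; edgeR adjusted p = 0.0604). Whether these differences arose in the floor plate or in other cells of the tube was not tested. Foxa2, which has several transcripts, had 0 to 3 counts, and of the notochord genes T had 49, 46, 92 and 65 counts in libraries 1 and 2 labelled Lbx1Δ/Δ and WT libraries 1 and 2, while Noto had 0 in all of them.

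Ptch1 could not be read from these files. It had 2 and 18 counts in libraries 1 and 2 labelled Lbx1Δ/Δ and 6 and 3 counts in WT libraries 1 and 2, below the filter for testing. Its reads had been counted on 2 RefSeq transcripts, NM_001328514 and NM_008957, and in the matching GENCODE transcripts 98.9% of the bases of NM_001328514 and 89.7% of the bases of NM_008957 lie in stretches of at least 25 bases that both share. NM_001328514 held 2 and 10 counts in the libraries labelled Lbx1Δ/Δ and 4 and 1 counts in WT, and NM_008957 held 0 and 8 against 2 and 2. A total under 10 counts was found for 61.3% of all genes with several transcripts and for 41.3% of those with 1, and the other 8 Hedgehog genes each had a single transcript. Hhip, which encodes a membrane protein that binds and sequesters Hedgehog ligands, was therefore the receptor-level gene that could be tested beside the co-receptors. It was at 17.0 and 15.1 CPM in libraries 1 and 2 labelled Lbx1Δ/Δ, against 18.2 and 15.8 CPM in WT libraries 1 and 2. The groups overlapped, and the fitted log2 difference was −0.09 (SE 0.24; edgeR adjusted p = 0.9998).

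The co-receptors are cell surface proteins that bind SHH together with PTCH1. Boc, an immunoglobulin and fibronectin repeat protein also known for guiding commissural axons, was at 206 and 143 CPM in libraries 1 and 2 labelled Lbx1Δ/Δ, against 184 and 153 CPM in WT libraries 1 and 2. Cdon, a protein of the same family, was at 223 and 120 CPM in the libraries labelled Lbx1Δ/Δ, against 232 and 167 CPM in WT. Gas1, a membrane protein anchored by a lipid, was at 310.3 and 131 CPM in the libraries labelled Lbx1Δ/Δ, against 344 and 198 CPM in WT. In all 3 genes library 1 of each genotype was above library 2 of either genotype, and the genotypes overlapped. The fitted genotype log2 differences were 0.04 (SE 0.24) for Boc, −0.23 (SE 0.37) for Cdon and −0.31 (SE 0.50) for Gas1, all with an edgeR adjusted p of 0.9998.

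The GLI factors are zinc finger proteins that carry the signal to DNA; GLI2 is the main activator, GLI3 the main repressor, and Gli1 is transcribed in response to the signal. Gli1 was at 70.1 and 39.9 CPM in libraries 1 and 2 labelled Lbx1Δ/Δ, against 62.0 and 36.8 CPM in WT libraries 1 and 2. Gli2 was at 137 and 83.2 CPM in the libraries labelled Lbx1Δ/Δ, against 122 and 86.1 CPM in WT. Gli3 was at 235 and 117 CPM in the libraries labelled Lbx1Δ/Δ, against 226 and 160 CPM in WT. As for the co-receptors, both libraries numbered 2 were below both numbered 1, and the genotypes overlapped. The fitted genotype log2 differences were 0.15 (SE 0.40) for Gli1, 0.07 (SE 0.33) for Gli2 and −0.15 (SE 0.40) for Gli3 (edgeR adjusted p = 0.9998 each).

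Promoter sequences are shown for the GLI factor pair Gli2 and Gli3 and for Gas1, which of the 8 tested genes varied most over the libraries (2.63-fold between the highest and the lowest). RefSeq promoter windows (GRCm38.p6) were held for 6 of the 9 genes, and the 250 bases before the start were searched on both strands for ACCACCC, the 7 central letters of the GLI binding motif, in which matches may overlap. The motif was found in 1 of the 6 windows, that of Gli2, where it lies 205 bases before the start on the strand opposite to the one printed, and in 3.92% of 32851 windows of all genes. Ptch1, Hhip, Cdon, Gas1 and Gli3 held no match in this window, and the windows of Gli3 and Gas1 had 72.8% and 58.8% G and C with 34 and 10 CG pairs, against 67.2% and 22 for Gli2 and medians of 52.4% and 6 over all windows. The sequences run 5′ to 3′ on the strand of the gene, in lower case, and capitals mark the motif match.
Gli2, chr1:119053620-119053869, minus strand: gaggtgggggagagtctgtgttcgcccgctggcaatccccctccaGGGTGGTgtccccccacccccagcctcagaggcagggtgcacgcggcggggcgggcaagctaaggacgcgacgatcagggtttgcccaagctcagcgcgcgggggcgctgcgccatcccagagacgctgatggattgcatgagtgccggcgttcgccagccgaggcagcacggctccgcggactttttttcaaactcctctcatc
Gli3, chr13:15463473-15463722, plus strand: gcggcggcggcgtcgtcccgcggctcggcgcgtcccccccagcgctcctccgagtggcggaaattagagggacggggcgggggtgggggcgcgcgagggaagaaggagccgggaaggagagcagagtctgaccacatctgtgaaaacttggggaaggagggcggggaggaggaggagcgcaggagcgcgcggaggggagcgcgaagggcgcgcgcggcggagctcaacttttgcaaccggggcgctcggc
Gas1, chr13:60177536-60177785, minus strand: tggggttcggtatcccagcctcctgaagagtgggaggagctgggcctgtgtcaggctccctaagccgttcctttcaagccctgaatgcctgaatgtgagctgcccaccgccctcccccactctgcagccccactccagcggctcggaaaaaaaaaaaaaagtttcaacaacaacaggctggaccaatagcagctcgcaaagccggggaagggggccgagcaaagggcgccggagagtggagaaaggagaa

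**Figure D1:**
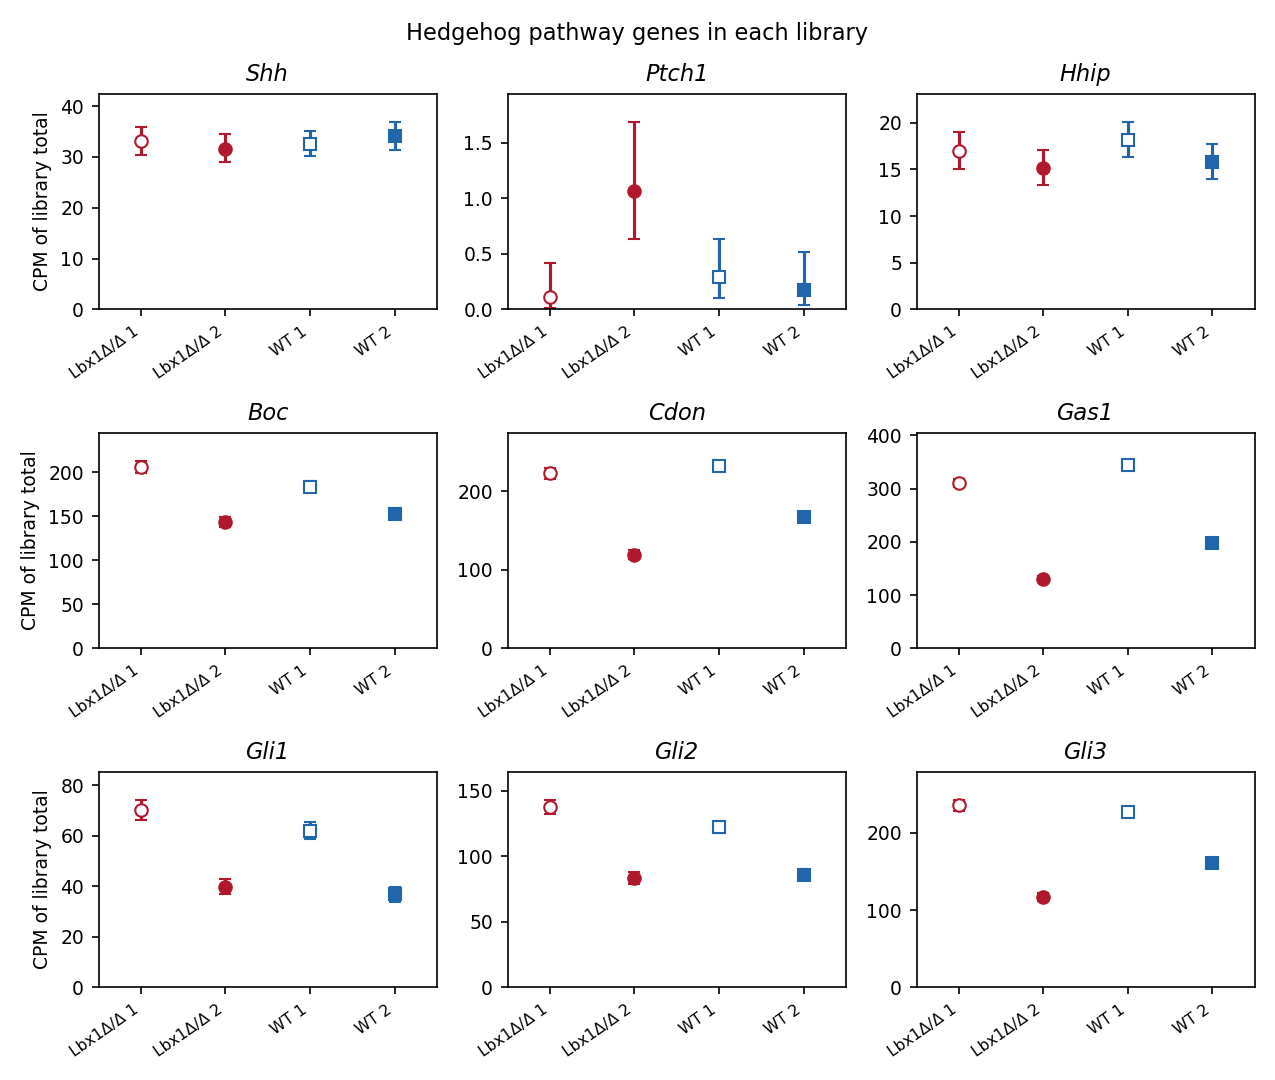
Level of each of the 9 Hedgehog genes (y axis, CPM of the library total, linear and starting at 0) in the 4 libraries (x axis; circles Lbx1Δ/Δ, squares WT; open symbols number 1, filled symbols number 2). Bars are exact 95% Poisson intervals of the count. Shh sits between 31.6 and 34.0 CPM in all libraries, while the co-receptors and GLI factors are lower in both libraries numbered 2, and Ptch1 rests on 2 to 18 counts.

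No Hedgehog gene was called between the genotypes by the edgeR test on genotype alone. The spread in that test includes the difference between libraries 1 and 2 of each genotype. A high p-value is therefore not evidence of no difference. With number as a second term in the fit, edgeR adjusted p-values of the 8 genes ran from 0.106 (Gas1, log2 −0.38, SE 0.11) to 0.945 (Boc, log2 0.03, SE 0.09). Over all genes the edgeR test on genotype alone called 0 of 10757 (0%) and 55 had an unadjusted p below 0.05. DESeq2 and limma-voom also called 0 genes, and 33 and 61 had such a p. The ranges of the genotypes overlapped in 8 of 8 genes, where 9.31% of all tested genes lay wholly lower and 11.3% wholly higher in the libraries labelled Lbx1Δ/Δ. The 8 tested Hedgehog genes had a median log2 difference of −0.07, with 3 fitted values above 0 and 5 below, against a median of −0.003 over all tested genes. Within numbers, 4 of the 8 genes (Shh, Boc, Gli2 and Gli3) had opposite signs. Gli1 had a higher value within both numbers, as 28.4% of all tested genes did, and Hhip, Cdon and Gas1 had a lower value within both, as 30.9% did. Gli1 differed by 0.18 within number 1 and 0.09 within number 2 on the log2 scale. Gli3 differed by 0.05 within number 1 and −0.48 within number 2, Cdon by −0.06 and −0.50, and Gas1 by −0.15 and −0.62, so the difference was larger within number 2 for these 3 genes. Each of these differences is between 2 libraries and has no replicate check. Leaving out a library turned the sign of the fitted difference in 7 of the 8 genes: without library 2 labelled Lbx1Δ/Δ it was 0.28 for Gli3, 0.16 for Cdon and 0.19 for Gas1, without WT library 1 it was 0.15, 0.05 and 0.17 for the same genes and 0.04 for Hhip, and without library 1 labelled Lbx1Δ/Δ or WT library 2 it was −0.32 or −0.19 for Gli1, −0.34 or −0.16 for Gli2 and −0.24 or −0.09 for Boc. Shh kept its sign, at −0.09 to −0.01. Each of these fits sets 1 library of a genotype against 2 of the other, with no term for number. The genotype and number differences are therefore mixed in them, and a turned sign cannot be read as a property of the genotype difference.

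**Figure D2:**
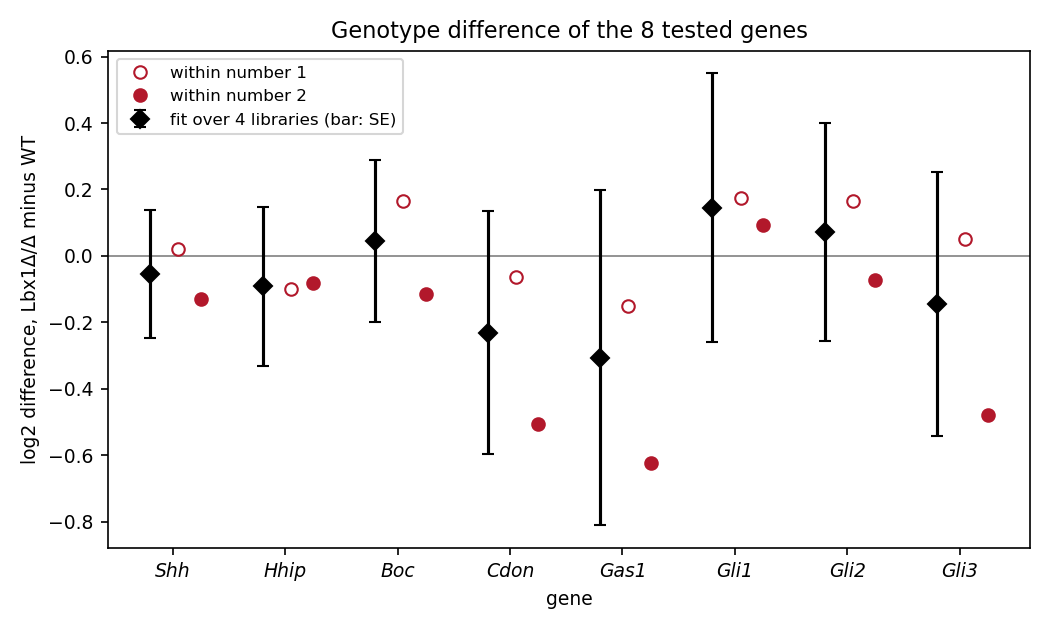
Log2 difference of Lbx1Δ/Δ minus WT (y axis) for the 8 tested Hedgehog genes (x axis); diamonds are the edgeR fit over 4 libraries with its SE, open and filled circles the differences between the libraries numbered 1 and those numbered 2. Every SE bar crosses 0, and the circles of Cdon, Gas1 and Gli3 lie lowest within number 2.

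All 3 GLI factors and all 3 co-receptors were lower in the libraries numbered 2 than in those numbered 1. These 6 genes of the 8 tested passed edgeR's quasi-likelihood test on number alone, where 12.2% of all tested genes were called lower and 13.3% called higher in number 2. The median log2 difference of the 8 genes was −0.66, against 0.0002 over all tested genes. In 7 of the 8 (all but Shh) the CPM of the libraries did not overlap between numbers, a pattern that 31.9% of all tested genes showed in that direction. Each number holds 1 library of each genotype, so an SD by number includes the difference between the genotypes. Gas1 averaged 164 ± 47.7 CPM in number 2 and 327 ± 23.9 CPM in number 1 (SD, n = 2 each), a log2 difference of −1.01 (SE 0.17; edgeR adjusted p = 0.00312), or 2.01-fold lower. Gli1 averaged 38.3 ± 2.20 CPM in number 2 and 66.1 ± 5.76 CPM in number 1, a log2 difference of −0.80 (SE 0.14; edgeR adjusted p = 0.00298), or 1.75-fold lower. Gli3 averaged 139 ± 30.7 CPM in number 2 and 231 ± 6.07 CPM in number 1 (log2 −0.75, SE 0.14; edgeR adjusted p = 0.00495). Cdon averaged 143 ± 33.4 CPM in number 2 and 228 ± 6.67 CPM in number 1 (log2 −0.69, SE 0.15; edgeR adjusted p = 0.0088). Gli2 and Boc had log2 differences of −0.64 (SE 0.11; edgeR adjusted p = 0.00273) and −0.41 (SE 0.10; edgeR adjusted p = 0.0171).

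The ligand and the antagonist did not pass the same test. Shh averaged 32.8 ± 1.71 CPM in number 2 and 32.8 ± 0.379 CPM in number 1 (SD, n = 2 each), a log2 difference of −0.02 (SE 0.15; edgeR adjusted p = 0.955), which was 0.003 with scaling to the library total. Hhip averaged 15.4 ± 0.441 CPM in number 2 and 17.6 ± 0.840 CPM in number 1, a log2 difference of −0.21 (SE 0.17; edgeR adjusted p = 0.42). Within a library, there were 1.26 and 1.08 reads of Gli1 per read of Shh in library 2 labelled Lbx1Δ/Δ and WT library 2, against 2.12 and 1.91 in libraries 1 of the same genotypes. Whether the change of Gli1 differed from that of Shh was not tested. The size of the number difference was also uneven between genotypes: Gas1 differed by −1.28 in the libraries labelled Lbx1Δ/Δ and −0.80 in WT, Gli3 by −1.04 and −0.51, and Cdon by −0.93 and −0.49, while Gli1 differed by −0.84 and −0.76. With 1 library of each kind, these differences between genotypes have no test. Leaving out WT library 1 or library 1 labelled Lbx1Δ/Δ lost all 6 calls (0 Hedgehog genes and 1 and 6 genes overall called, against 2739), with log2 differences of −1.08 to −0.32 and edgeR adjusted p-values of 0.0937 to 0.244, and leaving out either library numbered 2 kept the count of 6.

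Likeness of profiles between the genes was measured as the root mean square distance between log2 CPM centred on each gene's mean over the 4 libraries, so that all pairs share the same libraries. Cdon and Gli3 were the closest pair at 0.052, Gli1 and Gli2 were 0.10 apart, Gli2 and Gli3 0.16, Gli1 and Gli3 0.21 and Shh and Hhip also 0.10, while Shh and Gas1 were farthest apart at 0.54. Counting error was not carried into the distances and they have no replicate check, so these are descriptions. The ratio of Gli1 to Gli3 went opposite ways with number, untested: there were 0.341 reads of Gli1 per read of Gli3 in library 2 and 0.298 in library 1 labelled Lbx1Δ/Δ, and 0.229 in library 2 and 0.274 in library 1 of WT. Over all 10756 other tested genes, the 5 closest to Gli1 were H2ax, Fignl2, Kifc5b, Ticam2 and Fanci at 0.014 to 0.036, and the 5 closest to Gas1 were Foxd2os, Cenpp, Foxc2, Hspb1 and Cpm at 0.019 to 0.034. The 5 closest to Shh were Tmed10, Ywhaq, Paf1, Dnajc7 and Elp5 at 0.005 to 0.013. Which genes rank nearest cannot be relied on at such distances. Counting error alone spans 29.0 to 34.4 CPM for Shh in library 2 labelled Lbx1Δ/Δ, and Ticam2 was at only 1.18 to 2.38 CPM. A profile within 0.1 was rare for Gli1 (0.614% of genes) and Gas1 (0.623%) and common for the even profile of Shh (14%).

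**Figure D3:**
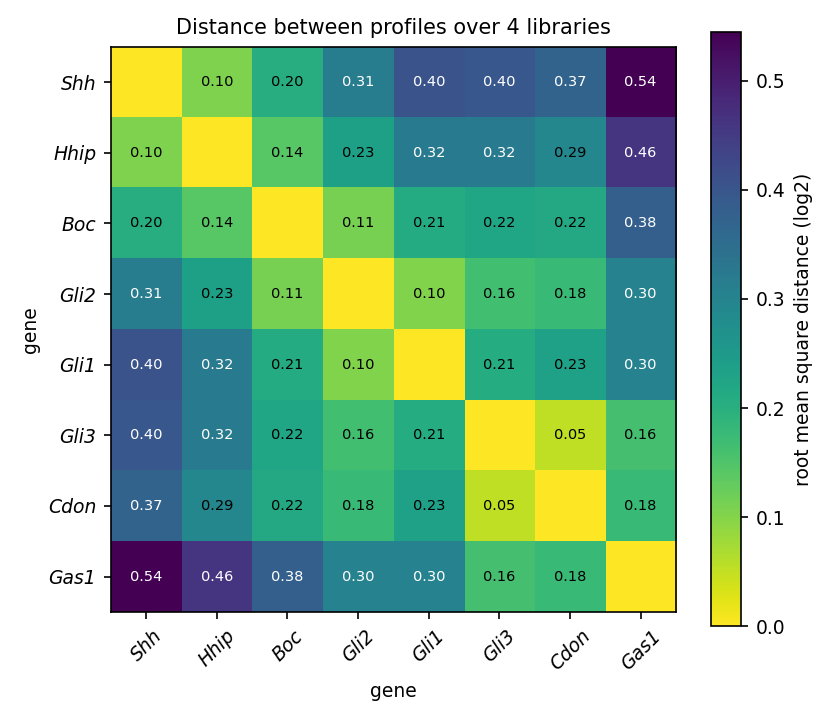
Root mean square distance (colour and printed value, log2 units) between the centred log2 CPM of each pair of the 8 tested Hedgehog genes over 4 libraries; both axes list the genes. Shh and Hhip lie close to each other (0.10), Cdon and Gli3 closest of all (0.05), and Shh and Gas1 farthest apart (0.54).

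Of 48 other genes of the pathway, its cilium and its outputs, 29 could be tested. These included 23 of 24 with a single transcript and 6 of 24 with several. The lists were written down by role with earlier results of these data known, so the shares called in them are descriptions. Sufu, Kif7, Disp1, Csnk1a1 and Gsk3b were among 11 genes at 0 counts in every library, all with several transcripts, so the relay between SMO and GLI was read only in part. None of the 29 was called between genotypes (0 genes by edgeR, against 0% of all genes), with a median log2 difference of −0.004. Between numbers 10 were called lower and 1 higher, with a median of −0.07, where 12.2% of all tested genes were called lower and 13.3% higher. Without WT library 1 or library 1 labelled Lbx1Δ/Δ none of these 11 calls held, and without library 2 labelled Lbx1Δ/Δ those of Evc2, Tulp3, Olig2 and Foxl1 were lost (edgeR adjusted p = 0.0629, 0.0674, 0.112 and 0.0512). Smo, the membrane protein that PTCH1 restrains, was at 321 and 197 CPM in libraries 1 and 2 labelled Lbx1Δ/Δ, against 317 and 214 CPM in WT libraries 1 and 2. Its number difference was −0.65 (SE 0.10; edgeR adjusted p = 0.00181), 1.57-fold lower in number 2. Evc and Evc2, partners at the base of the cilium through which SMO acts, had log2 differences of −0.90 and −0.67 between numbers (edgeR adjusted p = 0.00231 and 0.0295). Tulp3, a ciliary trafficking protein that restrains the pathway, was 1.33-fold lower in number 2 (edgeR adjusted p = 0.0236). Genes of cilium assembly did not pass the test. Ift88 was at 56.0 and 50.5 CPM in the libraries labelled Lbx1Δ/Δ and 55.9 and 46.0 CPM in WT, and Ift172 was at 100.5 and 109 CPM against 100.7 and 93.2 CPM. Among genes of ligand release none of the 4 tested passed: Scube2 was at 25.7 and 22.6 CPM in the libraries labelled Lbx1Δ/Δ and 17.4 and 20.1 CPM in WT, and Hhat, which attaches palmitate to the ligand, was at 16.1 and 12.3 CPM against 15.4 and 11.2 CPM. The related ligand Dhh was scarce, at 2.72 and 4.69 CPM in the libraries labelled Lbx1Δ/Δ and 3.64 and 3.30 CPM in WT. Ihh, with several transcripts, had 4 and 4 counts against 11 and 8, and its level could not be read, as for Ptch1.

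Genes listed as responding to the pathway in mesenchyme or in the tube were read from the same pools, in which the tissues were not separated. All 6 response genes of the sclerotome and visceral mesenchyme were called lower in number 2, against 12.2% of all tested genes, with a median log2 difference of −0.94. Foxf1, a forkhead factor of visceral mesenchyme, was at 22.1 and 6.53 CPM in libraries 1 and 2 labelled Lbx1Δ/Δ, against 20.9 and 10.9 CPM in WT libraries 1 and 2 (log2 −1.32, SE 0.25; edgeR adjusted p = 0.00432). Pax1, a paired box factor of the sclerotome, was at 131 and 55.7 CPM in the libraries labelled Lbx1Δ/Δ, against 121 and 90.9 CPM in WT (log2 −0.80, SE 0.19; edgeR adjusted p = 0.0147). Pax9, its paralogue, and Nkx3-2, a cartilage factor, had log2 differences of −1.05 and −1.17 (edgeR adjusted p = 0.0136 and 0.00589), and Foxf2 and Foxl1 of −0.53 and −0.83 (edgeR adjusted p = 0.0279 and 0.0355). Of the 4 tested ventral factors of the tube, none was called lower and 1 was called higher in number 2, against 12.2% and 13.3% of all tested genes. Olig2, which marks motor neuron progenitors and later oligodendrocyte precursors, averaged 7.31 ± 0.907 CPM in number 2 and 3.92 ± 0.600 CPM in number 1 (SD, n = 2 each; log2 0.88, SE 0.28; edgeR adjusted p = 0.043), and DESeq2 gave it an adjusted p of 0.0635. Nkx6-1, a factor of ventral progenitors, was at 29.2 and 30.8 CPM in libraries 1 and 2 labelled Lbx1Δ/Δ, against 23.2 and 25.7 CPM in WT libraries 1 and 2, and the 4 ventral factors had a median genotype log2 difference of 0.28 with none called. Of these 4, Nkx2-2 and Nkx6-2 have several transcripts, so they may have been read only in part.

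**Figure D4:**
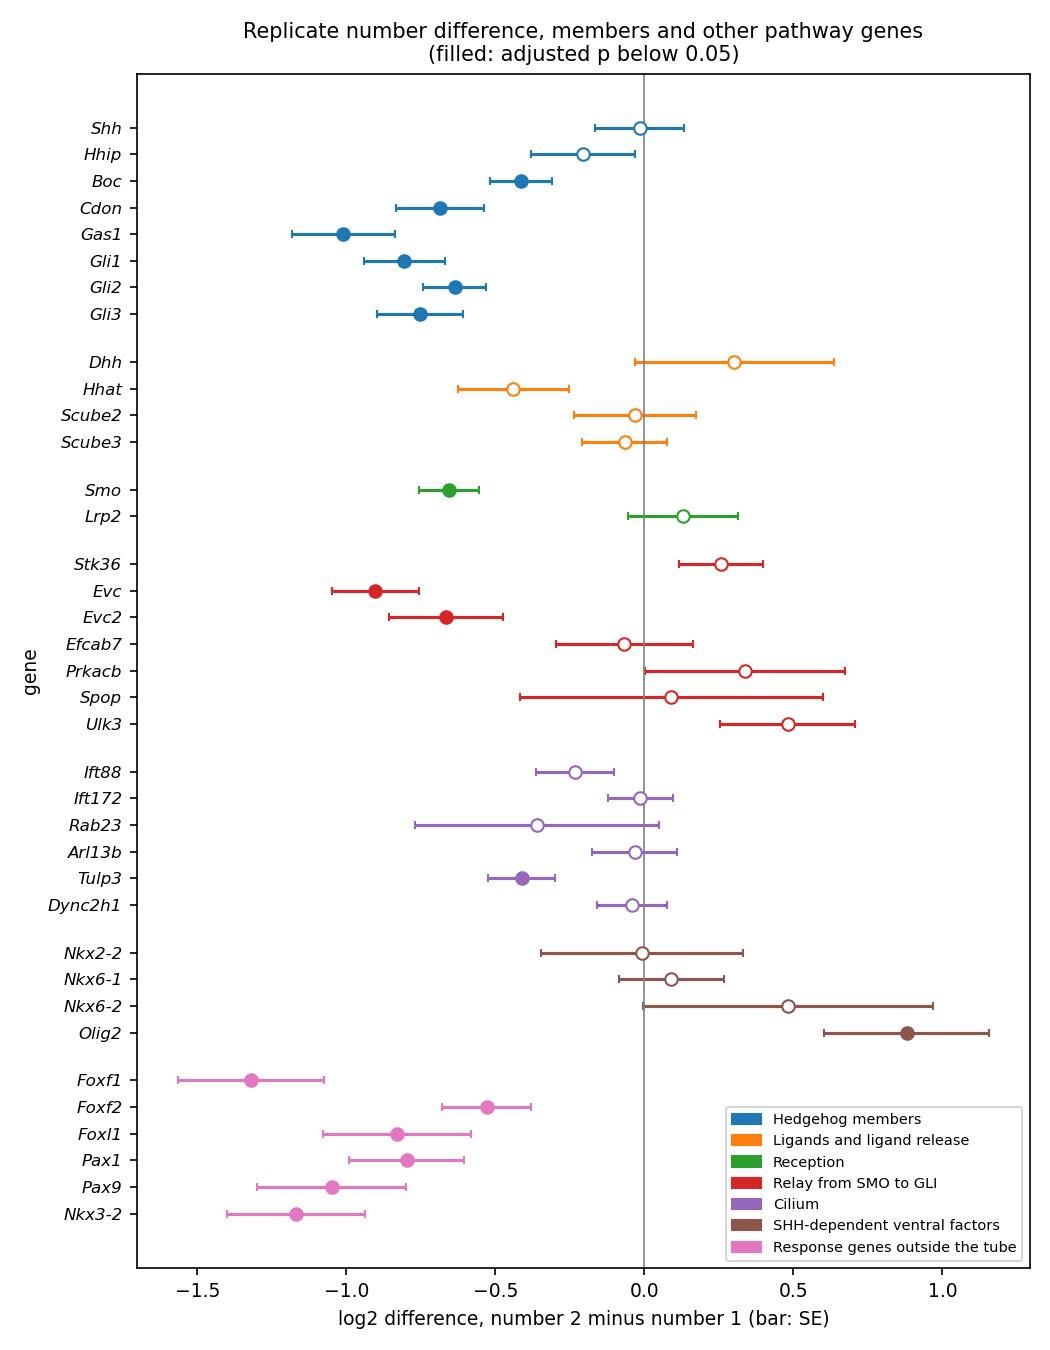
Log2 difference of number 2 minus number 1 with its SE (x axis) for the 8 tested Hedgehog genes and the 29 other tested pathway genes (rows, coloured by role); filled points have an edgeR adjusted p below 0.05. The GLI factors, co-receptors, Smo, Evc, Evc2 and the 6 response genes outside the tube lie left of 0, Shh lies at 0 and Olig2 right of it.

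Markers of other tissues moved with the numbers as well, beside 12.2% of all tested genes called lower and 13.3% called higher in number 2. The 5 skeletal muscle markers were all called lower in number 2, and their summed level was 129 and 409 CPM in library 2 labelled Lbx1Δ/Δ and WT library 2, against 741 and 867 CPM in libraries 1 of the same genotypes. Among 8 tested mesenchyme and cartilage markers, 7 had a fitted value below 0 and Twist1 and Prrx1 were called lower, with sums of 4189 and 4705 CPM in number 2 against 4406 and 6196 CPM in number 1. Of 3 tested surface ectoderm markers 1 was called lower, with sums of 42.4 and 66.4 CPM in number 2 against 64.6 and 93.0 CPM in number 1. The erythroid genes Hba-x and Hbb-y were called lower too, while Hba-a1 and Alas2 had 0 counts. Alas2 has several transcripts, so its level could not be read, as for Ptch1. Why Hba-a1, with a single transcript, had 0 counts was not tested. Of the neuron markers, 3 of 3 tested were called higher, with sums of 6473 and 5525 CPM in number 2 against 3482 and 3048 CPM in number 1, and of 5 tested neural progenitor markers 1 was called higher and none lower. Of the forebrain markers, Six3 was called lower in number 2 (edgeR adjusted p = 0.0184), with 3 and 0 counts in library 2 labelled Lbx1Δ/Δ and WT library 2, against 12 and 33 in libraries 1 of the same genotypes, and Nkx2-1 had 15 counts in WT library 1 and 0 elsewhere. Of the 4 caudal body markers Hoxa11 was called higher (edgeR adjusted p = 0.0275), with sums of 24.9 and 39.2 CPM in number 2 against 20.5 and 4.03 CPM in number 1. For Hoxc12, libraries 1 and 2 labelled Lbx1Δ/Δ held 61 and 156 counts, against 0 and 183 counts in WT libraries 1 and 2, so that WT library 1 stood apart. Of the 4 foregut markers only Foxa1 was tested, at 11.2 to 13.7 CPM in all libraries. Cdx2 and Sox17 had 0 counts, Sox17 with several transcripts, and Sftpc had 1 to 6 counts, so foregut tissue cannot be read from this list. Between genotypes, edgeR on genotype alone called none of these markers. Within both numbers, 5 of 5 skeletal muscle and 7 of 8 mesenchyme markers were lower in libraries labelled Lbx1Δ/Δ, as 30.9% of all tested genes were. The other mesenchyme marker, Pdgfra, and the 3 neuron markers were higher within both, as 28.4% were. Median log2 differences were −0.55 for muscle, −0.36 for mesenchyme and 0.24 for neurons. Gli1, Gli2, Gli3, Cdon, Gas1 and Boc are expressed by neural progenitors and also by mesenchyme around the tube. The part of these tissues in their number or genotype differences was not tested. For the response genes of the sclerotome and visceral mesenchyme, the part of tissue amount in their number difference was not tested either. Without WT library 1 none of the marker genes was called between numbers by edgeR, and without library 1 labelled Lbx1Δ/Δ 1 was.

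Levels were compared between genes per kilobase of the GENCODE transcript matched to the counted accession, and for Gas1, whose matched transcript covers only coding sequence, per kilobase of its RefSeq gene span of 3131 bases. On that scale Gas1 was highest, at 78.5 ± 31.6 CPM per kilobase (SD over 4 libraries), followed by Boc at 38.5 ± 6.47, Cdon at 25.7 ± 7.28, Gli3 at 22.6 ± 6.88, Gli2 at 16.2 ± 4.05, Gli1 at 12.9 ± 4.05, Shh at 11.5 ± 0.356 and Hhip at 1.82 ± 0.149 CPM per kilobase. The ranges over libraries did not overlap between Boc and Cdon or between Shh and Hhip. The other neighbours overlapped in range, although each was above the next in 4 of 4 libraries except Gli1, which was above Shh in 2 of 4, the libraries numbered 1.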

How the data were processed

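RNA was sequenced from 4 pools of neural tubes. The submitters' processing notes name TopHat2 2.1.1, featureCounts and build mm9. Strandedness, annotation and the fate of reads that several transcripts share are not given in the sources at hand. The authors deposited raw read counts per RefSeq transcript, unscaled, as the whole numbers in the files show. The 41411 accessions were named from RefSeq's GRCm38 gene table, used for names only (96 stayed unnamed), and summed per symbol.

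Genes were filtered with edgeR's filterByExpr (minimum count 10, minimum total 15), scaled with TMM and tested with glmQLFit and glmQLFTest (edgeR 4.0.16, R 4.3.3), two-sided, Benjamini-Hochberg adjusted over 10757 genes at 0.05, once for genotype and once for replicate number. Each SE was computed as the log2 difference over the square root of F. Differences between single libraries are on the TMM scale with 0.5 counts added. Since the labels say only that each library is a pool of littermates, p-values measure only the spread between them. In the number test each group holds a library of each genotype, so its spread, and each SD by number, includes the difference between the genotypes. In the genotype test the spread within a group includes the difference between the numbers. Alternatives were RLE and library total scaling, DESeq2 1.42.0, limma-voom (limma 3.58.1), no filter, the number as a block and each library left out. The number fit was tested on simulated data. The 9 genes, the pathway lists and the markers were chosen with earlier results of these data known; other genes named are those called in a list, those smallest in p in a list, and the 5 nearest in profile to Shh, Gli1 and Gas1, while Ptch1 was too low for a profile.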

Additional observations from a re-analysis of the deposited data

How the results depend on the processing

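RLE and library total scaling, limma-voom, DESeq2 and no filter left the counts at 0 genes called for genotype, and at 6 Hedgehog genes called lower in number 2, with 2620 to 2992 genes called for number overall. Leaving out each library gave 0 to 0 genes for genotype, 1 to 3917 for number and 0 to 6 Hedgehog genes lower in number 2. The low ends came without library 1 of either genotype. With the replicate number as a block, 92 of 10757 genes were called for genotype, Lbx1 (log2 1.88, edgeR adjusted p = 1.19e-06) but no Hedgehog gene among them. The markers Slit1 (log2 0.47, edgeR adjusted p = 0.0104), Krt5 (log2 −0.64, edgeR adjusted p = 0.042) and Myh3 (log2 −0.94, edgeR adjusted p = 0.047) were also among the 92. For number the block fit called 3833 of the 10757 genes, 1919 of them lower in number 2, and again 6 Hedgehog genes lower. Deviations of same-numbered libraries from their group means correlated at 0.623 over genes, but with 2 pairs and no statement in the labels the number was not taken as a pairing. The genotype log2 difference over left-out libraries ranged from −0.24 to 0.29 for Boc, −0.75 to 0.16 for Cdon, −1.07 to 0.19 for Gas1, −0.32 to 0.59 for Gli1, −0.34 to 0.40 for Gli2, −0.74 to 0.28 for Gli3 and −0.20 to 0.035 for Hhip. With a library left out the numbers are unbalanced between the genotypes, so these ranges also contain the number difference. The number difference of Shh ranged from −0.085 to 0.054 and was 0.0027 under library total scaling. Foxl1 lost its number call under DESeq2 (adjusted p = 0.0569), as Olig2 did. The mean of Ptch1 rests on 29 reads.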
